A study of Mus musculus with 13 samples.

Results

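Hepatocyte barcodes were droplet barcodes with at least 1500 UMIs (unique molecules) in which Alb, Apoa1, Apoa2 and Ttr, 4 plasma protein genes, together held at least 2% of the UMIs. They also had no UMI of Ptprc or Epcam and at most 1 of Stab2 and Clec4g together, markers of leukocytes, biliary epithelium and sinusoidal endothelium. In all, 247 of 95563 barcodes in 13 mouse liver libraries met this rule, which is 0.258% (95% Clopper-Pearson interval 0.227 to 0.293%). Because measured values chose these barcodes, the levels of the 8 genes of the rule are described, and no test result is given for them. Alb, serum albumin, ranged from 1140 to 59465 CPM (counts per 1000000 UMIs) over the 10 libraries with such barcodes, and Apoa2, an HDL apolipoprotein, from 7930 to 37616 CPM.

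The study followed the liver of C57BL/6J males aged 6 to 12 weeks on chow with 0.1% DDC (3,5-diethoxycarbonyl-1,4-dihydrocollidine). D0 mice received no DDC, and the diet was sampled at D3, D5, D9, D19 and D25. Each time point had 1 library from isolation protocol A and 1 from protocol B. A further library, STOP, came from protocol B after 18 days of DDC and 7 days of recovery. D19 B carries the label of day 18. Cells were enriched by gradient centrifugation, and in part with magnetic beads, before sorting. Protocol A sorted live single cells, leukocytes (Cd45+), epithelial cells (Epcam+), Pdpn+ cells, endothelial cells (Lyve-1+, or Cd31+ Lyve-1-) and cells with retinoid autofluorescence. Protocol B sorted live cells of a stellate cell preparation, Cd45+ Itgax+ Cd64- cells, Epcam+ cells and Cd3e+ Lyve-1- cells. Neither protocol had a gate for hepatocytes. The labels do not tie mice to libraries.

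Hepatocytes make most plasma proteins, and divide metabolic work along the lobule, with ammonia uptake and urea synthesis near the portal tract and glutamine synthesis around the central vein. DDC leads to inhibition of ferrochelatase, the last enzyme of heme synthesis, so protoporphyrin accumulates, plugs small bile ducts and gives a cholestatic injury in mice. Metallothioneins, glutathione transferases, acute phase proteins and the enzymes of fat metabolism are well known for changing in hepatocytes under such stress.

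Hepatocyte barcodes were unevenly spread over the series. STOP held 154 of 8480 barcodes (1.82%, interval 1.54 to 2.12%) and D25 B held 60 of 5973 (1.005%, interval 0.767 to 1.29%). With 10% in place of 2% the order turned, at 0.106% in STOP and 0.251% in D25 B. D0 A had 13, D0 B 3, D3 B 1, D5 B 2, D9 A 4, D9 B 2, D19 A 7 and D19 B 1. No barcode met the rule in D3 A, D5 A or D25 A, where 3 barcodes would have been 0.0424%, 0.0443% and 0.0282%. All intervals here cover counting error only. Only D25 B and STOP reached the minimum of 20 barcodes, so levels in the other 8 libraries rest on 33 barcodes in all.

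**Figure D1:**
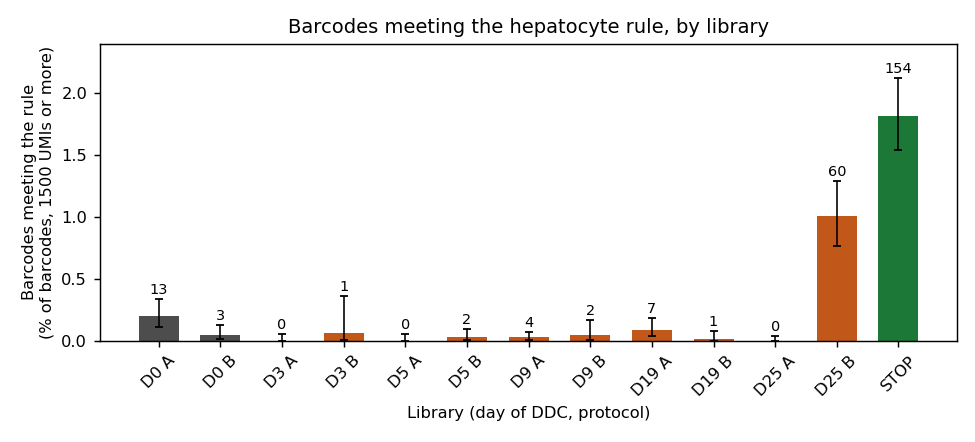
Share of barcodes with at least 1500 UMIs that met the hepatocyte rule in each of the 13 libraries, with 95% Clopper-Pearson intervals and the number of barcodes above each bar. STOP (154) and D25 B (60) held most of the 247.

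The rule's threshold cut through a continuous range. The lowest shares of the 4 genes inside it were 2.005% in D25 B and 2.062% in STOP, and the highest outside it, among barcodes that met the other criteria, were 1.997% and 1.966%. Of the 247 barcodes, 61 had between 2 and 3%. A further 42 of 289 barcodes above the threshold were left out, 25 with Ptprc, 15 with Epcam and 2 with more Stab2 and Clec4g. Barcodes of 10 to 100 UMIs, which hold mostly free RNA, carried 0.956% of the 4 genes in STOP, 0.231% in D0 A, 0.115% in D25 B and at most 0.0705% elsewhere. No doublet caller was run. No barcode sequence was shared between hepatocyte barcodes of different libraries, and 6 of the 247 also occurred among other barcodes of another library.

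The label was checked on 37 hepatocyte genes that the rule did not use, such as Apoc3, Serpina3k and Cps1. A barcode had a median of 25 of them and at least 12, and 203 of 247 had 20 or more. Together they took 11.04% of the UMIs in D25 B and 10.2% in STOP, against 1.01% and 0.644% of the UMIs of the other barcodes. Genes of 9 lists for other liver cell types summed to 1661 CPM in D25 B and 1245 CPM in STOP, against 53781 and 51153 CPM in the other barcodes. Of 83 such genes, 52 had a UMI in D25 B and 58 in STOP. Of 13 stellate genes, 8 had a UMI in D25 B and 10 in STOP, and of 13 endothelial genes 6 and 11. Of 10 T and NK cell genes, 9 and 10 did. Lrat, Reln, Lyve1, Gpr182 and Csf3r were at 0 in both. Neutrophil genes in D25 B were at 387 CPM, against 1121 CPM in the other barcodes, and B cell genes in STOP at 52.8 against 129 CPM. Biliary genes were at 547 CPM in D25 B and 556 CPM in STOP, against 5625 and 3408 CPM. In D19 A they were above the other barcodes, at 11188 against 1494 CPM.

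Hepatocyte barcodes differed from other cells in Malat1, a nuclear long noncoding RNA. It took 0.0517% of their UMIs in D25 B and 0.0210% in STOP, against 1.44% and 2.25% in the other barcodes, and 107 of the 247 had no Malat1 UMI. Mitochondrial transcripts were also few in the well covered libraries, with a median of 0.0427% per barcode in D25 B and 0.0368% in STOP. D0 A stood apart, with a median of 14.2% and a range from 0.183 to 89.0% over its 13 barcodes, and the D3 B barcode had 7.65%. Barcodes of 29506 UMIs in D9 A and 30871 UMIs in D19 A had 12.3% and 13.3%, and 4 of 154 in STOP had 5% or more, up to 82.3%. D0 A, D3 B, D9 A and D19 A enter the comparison of DDC with D0, and the part of mitochondrial or nuclear RNA in the results was not tested.

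**Figure D2:**
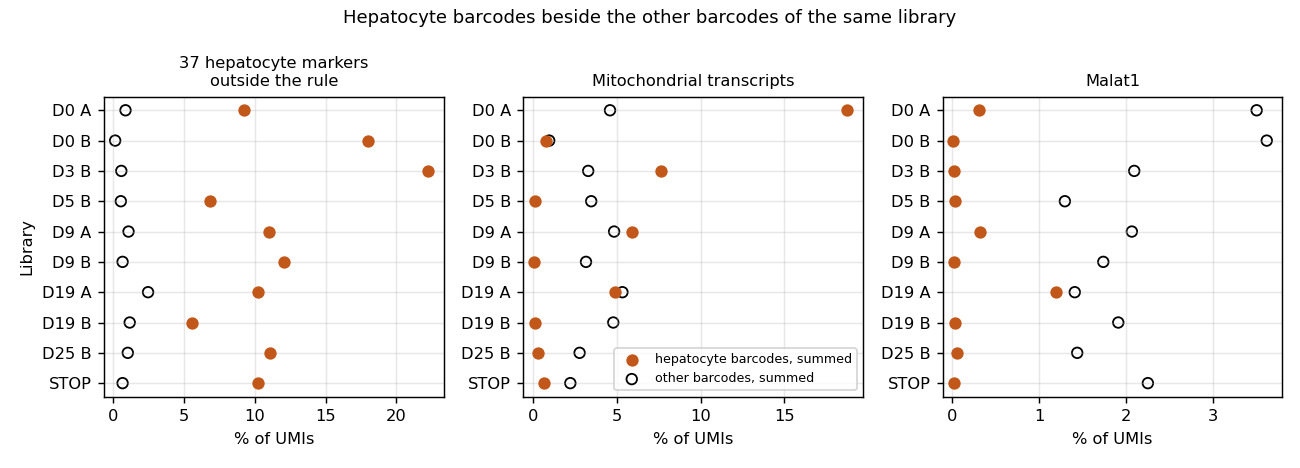
Share of UMIs (percent, horizontal axis) held by 37 hepatocyte genes outside the rule, by mitochondrial transcripts and by Malat1, in the 10 libraries with hepatocyte barcodes; filled points are those barcodes summed and open circles the other barcodes of the library. Hepatocyte genes were higher in the hepatocyte barcodes of each library, and Malat1 was lower.

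The planned comparisons of early (D3, D5) and late (D9, D19, D25) DDC with D0 could not be made, since only 1 library of the 12 without recovery reached 20 barcodes. In their place, chosen after the counts of barcodes were seen, the 7 DDC libraries with at least 1 barcode were compared with the 2 D0 libraries. Counts were summed per library and tested with edgeR's quasi-likelihood test, with protocol as a term. The D0 sums rest largely on few barcodes. The largest held 63.1% of the UMIs in D0 B, and the 2 largest of D0 A had 10863 and 9082 of 44686 UMIs. Of 803 genes tested, 799 of them outside the rule, 3 were higher in DDC (0.374%) and 6 were lower (0.747%) at an adjusted p under 0.05. A further count, at an unadjusted p under 0.05, was 69. Genes of the rule that passed the filter stayed in the fit and its adjustment. None of them was called, though they can be among the 69. Libraries of 1 to 4 barcodes describe those cells more than the liver, and no gene was called within protocol A or protocol B alone, with 105 and 21 genes at an unadjusted p under 0.05. Each of these fits has 1 D0 library, and protocol A 2 DDC libraries, so D0 is assumed to vary like DDC. The log2 estimates were -4.19 and -4.30 for Nudt7 within protocols A and B against -4.26, and -3.82 and -4.26 for Car3 against -4.10. Others moved more, with 6.20 and 11.8 for Mt1 against 7.64, and -8.47 and -3.38 for Mup1 against -5.996. Elovl3 was tested within neither protocol, and Sult2a8 within protocol A only.

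The metallothioneins Mt1 and Mt2, small proteins that bind zinc and copper, rose. Mt1 was at 22.4 CPM in D0 A, from 1 UMI, and at 0 in D0 B. Under DDC it was at 2643 CPM in D3 B, 5455 in D5 B, 1622 in D9 A, 8502 in D9 B, 2337 in D19 A, 4482 in D19 B and 7635 in D25 B. Every DDC library lay above both D0 libraries for Mt1 and Mt2, which was so for 1.75% of 799 genes outside the rule. The summed DDC barcodes had 479 times the Mt1 level of the summed D0 barcodes (95% counting interval 85.9 to 18929; adjusted p = 0.0196, edgeR). This ratio was 243 without D25 B, which held 2822 of the 3427 DDC UMIs, and 270.3 without D0 B, and Mt1 was at least 69.6-fold above the floor of 3 UMIs without D0 A. Mt2 had no UMI in either D0 library and 330 to 1582 CPM in the 7 DDC libraries. Against a floor of 3 UMIs over both D0 libraries, Mt2 was at least 19.1-fold higher in the summed DDC barcodes (adjusted p = 0.00786, edgeR), a bound of 8.33 without D0 A and 10.8 without D0 B. The Mt1 call was lost without D0 A, D0 B, D9 A, D19 A or D25 B (adjusted p = 0.0512 to 0.673, edgeR), and the Mt2 call without D0 A or D0 B (adjusted p = 0.151 and 0.316, edgeR). Mt1 and Mt2 are neighbours, at chr8:94178883-94180327 and chr8:94172618-94173567 (GRCm38.p6).

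Metallothionein promoters are known for metal response elements, read here as TGCACNC or TGCGCNC on either strand. The letters were chosen after the sequence was seen. The 250 bases before the RefSeq start of Mt2 (chr8:94172368-94172617, + strand, GRCm38.p6) are shown because Mt2 rose from no UMI, with the 3 matches in capitals.
Mt2: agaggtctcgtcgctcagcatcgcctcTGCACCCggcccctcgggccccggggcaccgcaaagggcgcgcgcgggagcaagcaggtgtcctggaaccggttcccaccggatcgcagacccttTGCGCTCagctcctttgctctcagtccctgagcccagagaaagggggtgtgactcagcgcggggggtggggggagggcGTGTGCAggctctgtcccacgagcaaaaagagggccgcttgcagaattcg
The matches start 223, 128 and 50 bases upstream and do not overlap. Among 32536 upstream stretches of this length in the table, 21.5% held at least 1 match and 1.28% held at least 3. A match is a description of letters, not of binding.

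Lcn2, the iron-scavenging acute phase protein lipocalin 2, was the third gene called higher. It had no UMI at D0 or in D3 B, 237 to 364 CPM in D5 B, D9 A, D9 B and D19 B, 885 CPM in D19 A and 1207 CPM in D25 B. The D19 B value was 1 UMI, and in D19 A 69 of 75 UMIs came from 1 barcode with 2.89% of its UMIs in genes of other cell types. The summed DDC barcodes were at least 25.6-fold above the floor of 3 D0 UMIs (adjusted p = 0.0428, edgeR), and Lcn2 had UMIs in 6 of 7 libraries. D25 B held 446 of the 550 UMIs, and the bound was 13.9 without it, 11.2 without D0 A and 14.5 without D0 B. The call was lost without barcodes above 1% in other cell type genes (adjusted p = 0.154, edgeR) and without D0 A, D0 B, D5 B, D9 A, D19 A or D25 B (adjusted p = 0.0503 to 0.388, edgeR), and it passed in 5 of 19 alternatives. Of 18 acute phase genes tested, a list that counts the metallothioneins, 3 were called higher, against 0.374% of all genes tested. They were Mt1, Mt2 and Lcn2, the same 3 calls that make up this 0.374%. Lcn2 was thus the list's only call besides the neighbouring metallothioneins. The median log2 difference of the list was 0.57 against -0.04 over all genes. Haptoglobin (Hp) ranged from 527 to 8920 CPM under DDC and from 1522 to 3072 CPM at D0, so the groups overlapped. The amyloid gene Saa1 had 45 and 0 CPM at D0 and 0 to 991 CPM under DDC, and Saa2 had UMIs in D19 A and D25 B only.

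The 6 genes that fell were Nudt7, a peroxisomal coenzyme A hydrolase, Elovl3, a fatty acid elongase, Sult2a8, a bile acid sulfotransferase, Thrsp, a regulator of lipogenesis, Car3, carbonic anhydrase 3, and Mup1, a major urinary protein. Nudt7 was at 1276 and 1478 CPM in D0 A and D0 B, and between 0 and 121 CPM in the 7 DDC libraries. Its estimate was -4.26 on the log2 scale (SE 0.59, adjusted p = 0.000395, edgeR), lower in 7 of 7. Car3 was at 3804 and 4260 CPM at D0. It had no UMI in D3 B, D9 B and D19 B, and 201 CPM in D9 A, 335 in D25 B, 401 in D19 A and 727 in D5 B. Its log2 difference was -4.10 (SE 0.85, adjusted p = 0.0135, edgeR).

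Thrsp had 604 and 2318 CPM at D0 and 0 to 380 CPM under DDC (log2 difference -3.36, SE 0.69, adjusted p = 0.0135, edgeR). Its summed D0 level was 6.83 times the DDC level, 3.06 times without D0 B and 11.7 times without D0 A, and the fitted log2 difference was -4.35 without D19 A. Sult2a8 had 1007 and 377 CPM at D0. It had 2 UMIs each in D5 B and D9 A and none in the other 5 DDC libraries, although D25 B held 369612 UMIs of hepatocyte barcodes (adjusted p = 0.00427, edgeR). The D0 level was 104 times the DDC level in the summed barcodes (counting interval 38.4 to 393). It was 36.0 times without D25 B, 53.3 without D0 A, 201 without D5 B and 184 without D9 A. Elovl3 had 31 UMIs at D0 and 1 UMI under DDC, in D19 B, a ratio of 222 (counting interval 36.95 to 9037; adjusted p = 0.00427, edgeR). The ratio was 77.1 without D25 B, and without D19 B Elovl3 was at least 73.4-fold higher at D0. Mup1 had 53 UMIs at D0 and 4 under DDC, all in the D3 B barcode (adjusted p = 0.0205, edgeR). There it was at 661 CPM, between the D0 levels of 627 and 724 CPM. The summed D0 level was 94.8 times the DDC level, 32.9 times without D25 B and at least 125 times without D3 B. Counts of single Mup genes are uncertain, since this family has many near-identical copies. Every DDC library lay below both D0 libraries for Nudt7 and Car3, as for 3.25% of 799 genes. For Sult2a8 and Elovl3 this cannot be read in D3 B and D19 B, where 3 UMIs are 496 and 791 CPM, and for Thrsp not in D19 B. Of the 6 calls, that of Nudt7 passed without each library in turn. Those of Car3, Thrsp and Elovl3 were lost without D0 A or D0 B, those of Sult2a8 and Mup1 without D0 A, those of Car3, Sult2a8 and Mup1 also without D9 A, D19 A or D25 B, and that of Thrsp without D25 B. Elovl3 was filtered out, and so not tested, without D9 A, D19 A or D25 B. A fit without a D0 library takes the spread from DDC alone. There the estimates were -4.33 and -4.12 for Car3 without D0 A and D0 B, and -6.69 and -8.30 for Elovl3 against -7.00. For Mup1 they were -4.57 and -9.295 against -5.996, and its estimate without D3 B was -9.04. DESeq2 did not call Sult2a8 (adjusted p = 0.344), Elovl3 (adjusted p = 0.416) or Mup1 (adjusted p = 0.437). Of 8 genes known to be higher in male livers, 2 were called lower, Elovl3 and Nudt7, against 0.747% of all genes tested, with a median log2 difference of -3.82 for the list.

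**Figure D3:**
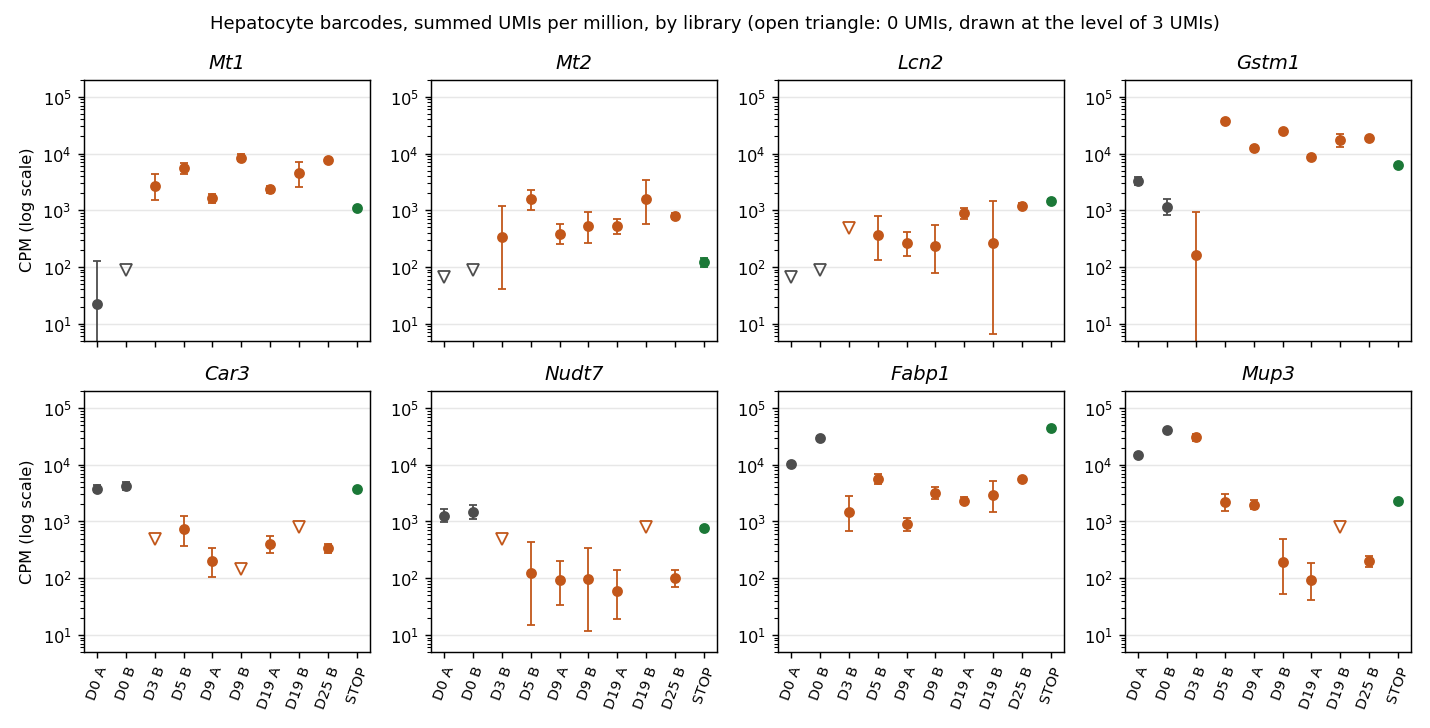
CPM (log scale) of 8 genes in the summed hepatocyte barcodes of each library, with 95% Poisson intervals for counting error; grey D0, orange DDC, green STOP, and open triangles mark 0 UMIs at the level of 3 UMIs. Mt1 and Mt2 were above D0 in all 7 DDC libraries, and Nudt7, Car3 and Fabp1 below it.

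Other genes of fat and drug metabolism gave wide groups or did not pass the test. With 0.374% of all genes called higher and 0.747% lower, no call in a short list says little about that list. Fabp1, the liver fatty acid binding protein, was at 10339 and 30253 CPM at D0 and at 896 to 5576 CPM in the 7 DDC libraries, with no overlap (log2 difference -3.14, SE 0.90, adjusted p = 0.107, edgeR). Acaa1b, a peroxisomal thiolase, had 811 to 940 CPM at D0 and 0 to 475 CPM under DDC. Of 7 fatty acid oxidation genes tested none passed, and the list's median was -1.36. Of 18 genes for glutathione transferases and other NRF2 targets, none passed, 14 had estimates above 0 and the median was 1.05. Over all 799 genes outside the rule, 383 had estimates above 0. Gstm1 was at 3267 and 1159 CPM at D0 and at 8768 to 37033 CPM in 6 DDC libraries, but at 165 CPM, 1 UMI, in D3 B. Gsta1 gave the same split, with 90 and 29 CPM at D0, none in D3 B and 354 to 7819 CPM in the 6 others.

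The single D3 B barcode therefore held both patterns. It had 30723 CPM of Mup3, close to the D0 levels of 14859 and 40482, and no Gsta1, yet 2643 CPM of Mt1 and no UMI of Car3 or Nudt7. In the later DDC libraries Mup3 lay between 0 and 2182 CPM.

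Genes of heme handling, the process that DDC disturbs, were low and sparse. Alas1, the rate-limiting enzyme of heme synthesis, had 45 and 58 CPM at D0, 0 in D3 B, D5 B and D19 B, 15 in D9 A, 332 in D9 B, 184 in D25 B and 1334 in D19 A. In D19 A, 102 of its 113 UMIs came from 1 barcode. Fech, ferrochelatase itself, had 67 and 0 CPM at D0 and 0 to 182 CPM under DDC. Hmox1, heme oxygenase 1, was at 0 at D0 and at 0 to 912 CPM under DDC, where 57 of the 59 UMIs of D9 A were in 1 barcode.

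Of 14 periportal genes tested none passed and the median was -0.80, and of 8 pericentral genes none passed and the median was -0.04. Hal, histidine ammonia lyase of the portal zone, had 425 and 348 CPM at D0 and 0 to 295 CPM under DDC. Cyp2f2, also portal, had 671 and 145 CPM at D0, 1156 CPM in D3 B and 0 to 59 CPM elsewhere. Cyp2e1, a central P450, had 1499 and 724 CPM at D0 and 0 to 1298 CPM under DDC, where all 84 UMIs of D9 A came from 1 barcode. Cps1, of the urea cycle, had 492 and 29 CPM at D0 and 0 to 757 CPM under DDC.

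Other genes of drug and stress responses were sparse. Of 11 cytochrome P450 genes tested none passed, 10 had estimates below 0 and the median was -1.07. Over all 799 genes outside the rule, 416 had estimates below 0 and the median was -0.04. Cyp1a2, of the central zone, had 157 and 377 CPM at D0 and 0 to 757 CPM under DDC, where D9 A had all of its 49 UMIs in 1 barcode. Cyp2b10, a target of the receptor CAR, had no UMI at D0 or in STOP and 0 to 108 CPM under DDC, and Cyp4a14, a target of PPAR alpha, had 1 UMI under DDC. Among NRF2 targets, Nqo1, a quinone reductase, had no UMI at D0 and 0 to 94.99 CPM under DDC. Sqstm1 (p62), which is also found in Mallory-Denk bodies, had 201 and 232 CPM at D0 and 0 to 1333 CPM under DDC. Orm2, an acute phase glycoprotein, had 22.4 and 58.0 CPM at D0 and 0 to 227 CPM under DDC, and Sqle, squalene epoxidase, stayed at or below 77.3 CPM in every library. All of these groups overlapped.

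Of 4 bile acid synthesis genes tested none passed, and the median was -0.64. Cyp7a1, the rate-limiting enzyme of bile acid synthesis, had at most 47 CPM in any library. Slc10a1, the basal bile acid importer, had 224 and 203 CPM at D0 and 0 to 527 CPM under DDC, and Abcb11, the export pump, had 134 and 0 CPM at D0 and 0 to 330 CPM under DDC. Abcc4, an exporter induced in cholestasis, had no UMI in any of the 10 libraries. Spp1, osteopontin, was at 11105 CPM in D19 A, where 1 barcode held 876 of 941 UMIs beside 504 UMIs of Clu and 1002 of Malat1. This barcode had 2.89% of its UMIs in the lists of other cell types.

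The comparison best covered by barcodes was STOP beside D25 B, both from protocol B. The design had set STOP beside D19 B, but D19 B held 1 hepatocyte barcode. STOP had 18 days of DDC before 7 days of recovery, and D25 B had 25 days of DDC. Recovery and length of diet therefore cannot be told apart here. Here there is 1 library per group, so there is no test, and the intervals cover counting error only. Hepatocyte barcodes had a median of 3575 UMIs in D25 B and 3900 in STOP, and summed to 369612 and 852120 UMIs. Among 1572 genes outside the rule at 100 CPM or more in either library, 112 were at least 2-fold higher in STOP (7.12%) and 106 at least 2-fold lower (6.74%), and the median log2 ratio was -0.02. D25 B also enters the comparison with D0 above.

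Genes of fat metabolism were among the highest ratios in STOP. Fabp1 was at 5565 CPM in D25 B and 43956 CPM in STOP, a ratio of 7.90 (interval 7.56 to 8.26), and was found in 56 of 60 and 153 of 154 barcodes. Its log2 ratio was 2.98, and 3.95 among barcodes with 10% or more of UMIs in the 4 genes. Acaa1b went from 198 to 2536 CPM (12.8 times). At D0, Fabp1 was at 10339 and 30253 CPM and Acaa1b at 811 to 940 CPM, so STOP was above both D0 libraries for each. Of 14 fatty acid oxidation genes compared, 7 were at least 2-fold higher and none lower, beside 7.12% and 6.74% of all genes. The list had a median log2 ratio of 0.99. The 7 included Ehhadh, Acadvl and Hadha, which act in peroxisomal and mitochondrial oxidation.

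PPAR alpha, with its partner RXR, is known to bind direct repeats in promoters of fatty acid oxidation genes, and Fabp1 carries a known one. The 250 bases before the RefSeq start of Fabp1 (chr6:71199629-71199878, + strand, GRCm38.p6) are shown because Fabp1 reached the highest level in STOP of the genes named here, with the match to TGNCCT, any base and TGNCCT again, searched on both strands, in capitals.
Fabp1: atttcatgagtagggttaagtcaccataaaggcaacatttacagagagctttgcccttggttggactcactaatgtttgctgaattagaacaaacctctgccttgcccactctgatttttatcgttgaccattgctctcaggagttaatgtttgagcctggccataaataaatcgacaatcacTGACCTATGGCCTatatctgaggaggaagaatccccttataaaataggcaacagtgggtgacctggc
The match runs from 67 to 55 bases upstream. The letters were chosen after the sequence was seen. Of 32536 stretches, 0.341% held a match, and of the 18 fatty acid oxidation genes with a stretch in the table, 1 did, which was Fabp1.

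Lipogenic genes stood higher in STOP as well. Fasn, fatty acid synthase, was at 24.3 CPM in D25 B and 223 CPM in STOP, Scd1, the stearoyl desaturase, at 939 and 3584 CPM, and Me1, malic enzyme, at 75.8 and 503 CPM. Of 6 lipogenesis genes compared, 5 were at least 2-fold higher and none lower, with a median log2 ratio of 2.02. Fitm1, which packs fat into droplets, had a ratio of 10.4 (interval 5.75 to 21.2), and Mgll, monoglyceride lipase, one of 8.71 (interval 5.10 to 16.1). Of 8 genes of cholesterol synthesis, 1 was at least 2-fold higher, Hmgcs1, a share near that of all genes (7.12%), and the median was 0.60. Of 8 bile acid synthesis genes, 2 were higher, Scp2 and Hsd17b4, with a median of 0.61.

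Of the genes that were low under DDC, some were high in STOP and others were not. Car3 was at 335 CPM in D25 B and 3717 CPM in STOP, beside 3804 and 4260 CPM at D0. Nudt7 was at 100.1 and 769 CPM, beside 1276 and 1478 CPM at D0. Sult2a8 had no UMI in D25 B and 171 in STOP, at least 24.7-fold higher against a floor of 3 UMIs in D25 B. Mup3 was at 198 and 2306 CPM, still under the D0 levels of 14859 and 40482 CPM. Mup1 was at 18.8 CPM in STOP beside 627 and 724 CPM at D0, Elovl3 at 95.1 CPM beside 313 and 492.6 CPM, and Hal at 42.2 CPM beside 425 and 348 CPM. Serpina1e, a protease inhibitor gene, was at 149 CPM in STOP beside 8884 and 29326 CPM at D0, and Mup11 at 66.9 CPM beside 4386 and 4492 CPM. With 1 STOP library, these values cannot show how far such levels vary between mice.

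Free RNA of the same genes also differed between the 2 libraries. In barcodes of 10 to 100 UMIs, Fabp1 was at 212 CPM in D25 B and 9543 CPM in STOP, and Car3 at 10.2 and 763 CPM. In barcodes that did not meet the rule, Fabp1 was at 122 and 1100 CPM. For Fabp1 and Car3, the level in hepatocyte barcodes was above both in each library. In D25 B this was not so for Mgll, at 37.9 CPM against 20.1 in small barcodes and 44.4 in those outside the rule. Nor was it for Glul, described below, at 24.3 CPM against 59.1 and 82.9. Fasn was at 24.3 CPM against 18.4 and 23.4. For Mt1, the small barcodes held 1210 CPM in D25 B and 489 CPM in STOP. The part of free RNA in the ratios was not tested.

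Acute phase genes split. Saa1 was at 492 CPM in D25 B and 2707 CPM in STOP, and Saa2 at 306 and 2713 CPM, a ratio of 8.87 (interval 7.35 to 10.8). Their log2 ratios, 2.46 and 3.14, were 3.30 and 3.80 with other cell type genes at 1% or less. Among barcodes with 10% or more of UMIs in the 4 genes they were 1.11 and 2.43. Hp was at 3736 and 4217 CPM and Lcn2 at 1207 and 1463 CPM. Hamp, the iron hormone hepcidin, was at 2148 and 1252 CPM. Of 20 genes compared, 3 were at least 2-fold higher, which were Saa1, Saa2 and Saa4, and 3 lower, which were Mt1, Mt2 and Cp, beside 7.12% and 6.74% of all genes. Saa1 and Saa2 are close paralogs, so their split is uncertain.

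Both metallothioneins and several glutathione transferases were lower in STOP. Mt1 was at 7635 CPM in D25 B and 1086 CPM in STOP, 7.03 times lower (interval 6.53 to 7.58), and Mt2 at 801 and 121 CPM. Among barcodes with 5% or more of UMIs in the 4 genes the differences were larger, at log2 ratios of -5.11 for Mt1 and -5.09 for Mt2 against -2.81 and -2.72. Gsta1 went from 2811 to 415 CPM and Gsta2 from 847 to 137 CPM, 6.77 and 6.17 times lower. Gstm1, the most abundant transferase transcript here, was at 18752 and 6312 CPM. Of 25 NRF2 targets and conjugation genes, 8 were at least 2-fold lower and 3 higher, beside 6.74% and 7.12% of all genes. The 3 were Me1, Gsta3 and Gstp1, and the list's median log2 ratio was -0.53. Srxn1, sulfiredoxin, was among the lower ones, at 273 and 70.4 CPM. Gst genes of one class share much sequence, and reads can be split between them.

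Other genes lower in STOP were of mixed kinds. Igfbp1, a growth factor binding protein induced by fasting and stress, was at 276 and 31.7 CPM, a log2 ratio of -3.10 that was -0.42 among barcodes with at least 3000 UMIs. Cib3 was at 698 and 165 CPM, Cyp2c29 at 703 and 177 CPM, and Sprr1a, a cornified envelope protein, at 1337 and 311 CPM. For Sprr1a, 5 barcodes held 85.8% of the UMIs in D25 B and 69.8% in STOP, and the median barcode of each had none. The simple keratins Krt8 and Krt18, components of Mallory-Denk bodies, were at 2624 and 2798 CPM in D25 B and at 1263 and 1271 CPM in STOP. Of 6 genes of that list compared, these 2 were lower and none higher. Of 4 biliary genes, Tm4sf4 and Anxa2 were lower, beside 6.74% of all genes for both lists. S100a6 and Lgals3 met the rule of size only through 1 D25 B barcode, which held 189 of 208 and 162 of 195 UMIs, and without the highest barcode of each library their STOP to D25 B ratios moved from 0.0605 to 0.616 and from 0.245 to 0.592. The neutrophil genes S100a8 and S100a9 came from another D25 B barcode, with 50 of 50 and 88 of 90 UMIs.

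**Figure D4:**
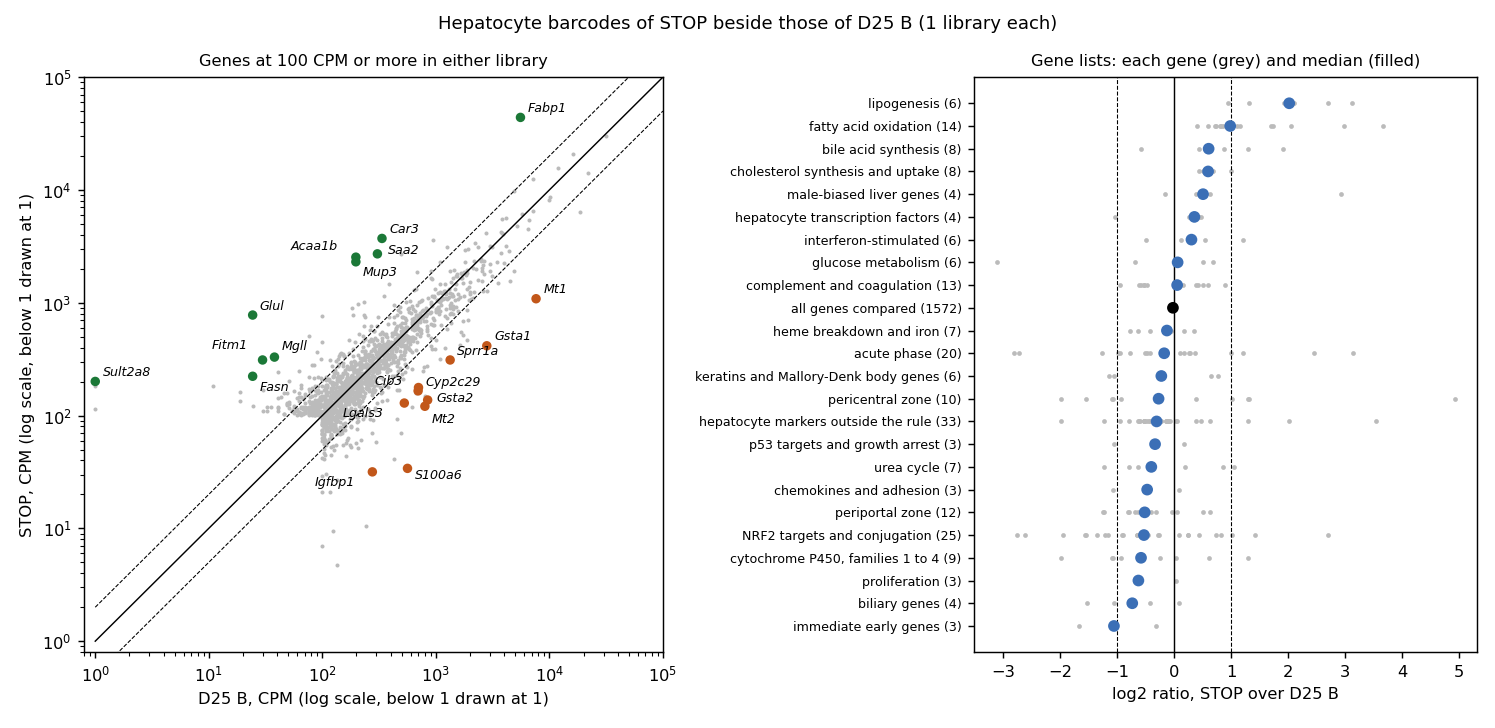
Left, CPM in D25 B against STOP (both log scale) for genes at 100 CPM or more in either, with equal levels (solid line), 2-fold differences (dashed) and the 10 genes farthest on each side by the naming rule in colour. Right, log2 ratio of each gene (grey) and median (filled) of the gene lists, with the number of genes compared; lipogenesis was highest at 2.02, and all genes had a median of -0.02.

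How these genes were spread over single barcodes differed. Mt1 had a UMI in 60 of 60 barcodes of D25 B and in 58 of 154 of STOP. When each barcode was thinned to 1500 UMIs, the expected shares were 98.5% and 22.8%, against 21.4% and 19.3% of barcodes with Ptprc. In STOP the share was close to that of these leukocyte barcodes, which do not measure free RNA alone. The median depth of those leukocyte barcodes was 6684 UMIs in D25 B and 5793 in STOP, against 3575 and 3900. In STOP, 5 barcodes held 65.1% of the Mt1 UMIs. Gstm1 stayed broad, with thinned shares of 99.7% and 97.9%, against 7.34% and 6.82% of Ptprc barcodes.

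In STOP, Fabp1 (thinned share 98.3%), Car3 (90.1%) and Acaa1b (84.3%) were broad, while Saa2 was not. In Ptprc barcodes the thinned shares of the first 3 were 19.6%, 3.11% and 2.41%. Saa2 had a UMI in 81 of 154 barcodes (52.6%; 42.9% thinned, against 0.990% of Ptprc barcodes), and 5 barcodes held 56.1% of its UMIs. In D25 B it had a UMI in 12 of 60 barcodes (13.9% thinned).

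Glul, glutamine synthetase, which marks the hepatocytes around the central vein, was concentrated in few barcodes. It was at 24.3 CPM in D25 B and 778 CPM in STOP, a ratio of 31.95 (interval 16.7 to 70.2). Among barcodes with 10% or more of UMIs in the 4 genes, 15 in D25 B and 9 in STOP, the direction turned, with 2 UMIs against 0. It had a UMI in 7 of 60 barcodes of D25 B, with no more than 2 in any, and in 58 of 154 of STOP. The thinned shares were 4.36% and 20.7%, against 8.10% and 8.11% of Ptprc barcodes. In STOP, 12 barcodes with 10 or more Glul UMIs held 86.6% of them. Oat, another pericentral gene, was at 116 CPM in these 12 and at 5.38 CPM in the 96 STOP barcodes with no Glul UMI. The portal genes Cyp2f2 and Hal had no UMI in the 12, and were at 80.6 and 78.0 CPM in the 96. Among other pericentral genes, Rgn was at 5624 and 2196 CPM, Gulo at 159 and 48.4 CPM, Cyp2e1 at 551 and 325 CPM, Cyp1a2 at 87.0 and 67.2 CPM and Cyp2a5 at 72.5 and 53.8 CPM. Slc1a2 had 2 UMIs in the 12 and none in the 96, Axin2 had 1 in each set, and Lgr5 and Rhbg had none in either. The 12 were chosen by Glul, so these values are a description. At D0, Glul was at 157 and 1043 CPM.

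**Figure D5:**
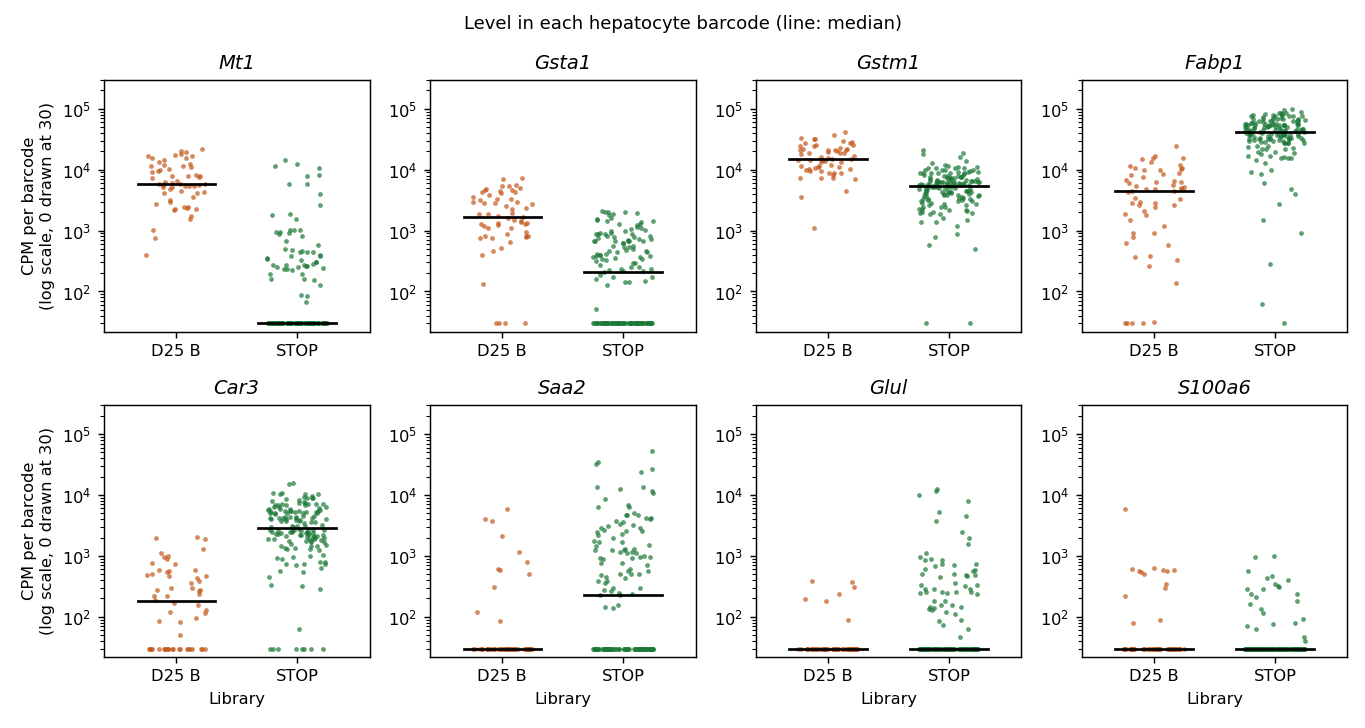
CPM (log scale, 0 drawn at 30) of 8 genes in each hepatocyte barcode of D25 B (60, orange) and STOP (154, green), with the median as a line. Mt1 was detected in all D25 B barcodes and in 58 of STOP, and Glul reached 10 UMIs in 12 barcodes of STOP and in none of D25 B.

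Mki67, a marker of cycling cells, had 2 UMIs in D25 B and 1 in STOP, and Sox9, a biliary and progenitor factor, had at most 90 CPM in any library. Cdkn1a, a cell cycle inhibitor, was at 143 CPM in D25 B and 163 CPM in STOP. Hnf4a, a hepatocyte transcription factor, was at 64.9 and 66.9 CPM, beside 336 and 58.0 CPM at D0. At this depth, 3 UMIs correspond to 8.12 CPM in D25 B and 3.52 CPM in STOP.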

How the data were processed

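The authors deposited a matrix of UMI counts for each of 13 10x libraries, pseudoaligned with kallisto against GRCm38 per the labels. These counts were not normalized, and single barcodes were read with genes in columns or rows as each deposited file had them (the STOP matrix was transposed). Libraries held 29307190 to 108602421 UMIs over all barcodes. Counts of the chosen barcodes were summed per library and given as CPM with exact 95% Poisson intervals, or as lower bounds against 3 UMIs where a sum was 0. Intervals cover counting error only. The p-values measure the spread between library sums, which the labels do not tie to mice. In D3 B and D19 B such a sum is 1 barcode. In D5 B and D9 B 1 barcode held 88.8% and 85.8% of it, so the spread between single cells is part of what the p-values measure.

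DDC and D0 sums were fitted in edgeR 4.0.16 (R 4.3.3, TMM, filterByExpr, protocol as a term, quasi-likelihood test, Benjamini-Hochberg adjustment at 0.05). The fit was also run on simulated counts with the same spread in every library. Such counts do not mimic sums of unequal numbers of barcodes, so that run does not show how the fit behaves here. Libraries with 1 barcode enter like the others. DESeq2 1.42.0 was an alternative. Ratios of STOP to D25 B used genes at 100 CPM or more in either library. Genes were named by a fixed index list, the 10 largest changes in each direction past the threshold or the 2-fold rule (predicted, mitochondrial, ribosomal protein and other cell type genes left out), and up to 4 members of each list with the smallest p. Others were named after their values were seen, such as Serpina3k, Apoc3, Hamp and the genes of single barcodes. The barcode rule and gene lists were chosen with earlier results of these data known. Shares thinned to 1500 UMIs are expectations from each barcode's counts. Doublets were not called. Some genes are not reported here. Promoter sequences and gene positions are from RefSeq, GRCm38.p6, where 25 of 25 symbols looked up were matched, and motifs were chosen after the sequences were seen.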

Additional observations from a re-analysis of the deposited data

Results flagged for a closer look

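Over the DDC libraries, 17 of 41 series tested had a lowest or highest library that lay apart from the rest by Dixon's criterion, 16 of them gene levels over the 7 libraries with hepatocyte barcodes. The criterion's nominal rate of 1 in 20 assumes normal values of like precision, so it is no measure of chance here. A single UMI in 1 library can raise a flag, and with 1 to 60 barcodes per library most of these values rest on 1 barcode. The share of hepatocyte barcodes over all 10 DDC libraries was highest in D25 B, at 1.005%.

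Genes of heme handling and drug metabolism were each high in 1 library. Alas1 was at 1333.5 CPM in D19 A, with 102 of 113 UMIs in 1 barcode. Hmox1 was at 911.6 CPM in D9 A, with 57 of 59 UMIs in 1 barcode. In D9 A, Cyp2e1 was at 1297.9 CPM and Cyp1a2 at 757.1 CPM, and all of their UMIs, 84 and 49, came from 1 barcode. Cyp4a14 was at 47.5 CPM in D9 B, from 1 UMI.

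Zonation and transport genes gave a like picture. Glul was at 177.0 CPM in D19 A, with 13 of 15 UMIs in 1 barcode. Cyp2f2 was at 1156 CPM in D3 B, from 7 UMIs, and Abcb11 at 330.4 CPM in the same barcode, from 2 UMIs. Mup1 was at 660.7 CPM there, from 4 UMIs.

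Biliary, keratin and growth genes also stood apart. Spp1 was at 11105 CPM in D19 A, with 876 of 941 UMIs in 1 barcode, and Sox9 at 77.3 CPM in D9 A, with 3 of 5 UMIs in 1 barcode. Krt18 was at 2797.5 CPM in D25 B, where the highest barcode held 187 of 1034 UMIs, so this value did not rest on 1 barcode. Saa2 was at 305.7 CPM in D25 B, with 45 of 113 UMIs in 1 barcode, and Mki67 at 5.41 CPM, from 2 UMIs. Among genes called lower in DDC, Elovl3 was at 263.6 CPM in D19 B, from 1 UMI, and Sult2a8 at 121 CPM in D5 B, from 2 UMIs.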

How the results depend on the processing

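The planned contrasts of early and late DDC with D0 and with each other gave no value under any member minimum tried: with 20 or 50 barcodes only D25 B entered, and with 10, D0 A and D25 B, which differ in protocol. No paired analysis was possible because the labels number no replicates; what the time points share is the protocol, which was a term of the fit. The DDC and D0 comparison gave 3 genes higher and 6 lower. The counts were 9 and 15 with DESeq2, which called 6 of the 9 genes, 11 and 20 without a filter, 0 and 0 within protocol A, within protocol B and at 5% of UMIs (105, 21 and 32 genes at an unadjusted p under 0.05), 4 and 13 with at least 2 barcodes per library, 2 and 5 at 3000 UMIs, 2 and 5 with upper quartile scaling, 2 and 7 without the protocol term and 2 and 6 with other cell type genes at 1% or less. Leaving out 1 library each gave 0 to 8 higher and 1 to 25 lower. No gene was called higher without D0 A or D0 B, and 8 were higher and 25 lower without D3 B. Without D9 A or D19 A there were 1 higher and 2 lower, without D9 B 5 and 9, and without D25 B 1 and 1. At 10% of UMIs the fit could not be made. The direction of each called gene was the same under every alternative that tested it. Nudt7 passed in 16 of 19 (highest adjusted p = 0.210), Mt2 in 14 of 19, Thrsp in 13 of 19, Sult2a8 in 11 of 18, Elovl3 in 10 of 14, Mt1 and Car3 in 11 of 19, Mup1 in 8 of 19 and Lcn2 in 5 of 19 (highest 0.903).

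For STOP beside D25 B, 328 genes were higher and 385 lower at 10% of UMIs, which left 9 barcodes in STOP and 15 in D25 B, and the other alternatives gave 105 to 134 higher and 77 to 147 lower. Glul reversed there, at a log2 ratio of -2.12 against 4.92. The log2 ratios of Igfbp1 at 3000 UMIs (-0.42), Sprr1a at 10% (-0.70), and S100a6 (-0.71) and Lgals3 (-0.76) without their highest barcode were under 2-fold. The share of hepatocyte barcodes over all libraries was 0.207% at 3000 UMIs, 0.140% at 5% and 0.0272% at 10%. It was 0.0766% and 0.0153% in D0 A at 5% and 10%, and 0.673%, 0.619% and 0.251% in D25 B and 1.38%, 1.01% and 0.106% in STOP under the 3 settings. The log2 ratios of Mt1 and Mt2 were -5.11 and -5.09 at 5% and -5.54 and -6.14 at 10%. The causes were not tested.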

Other observations

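Genes of early response and interferon response, which the comparisons above leave out, were few in STOP beside D25 B. Of 3 immediate early genes compared, 2 were at least 2-fold lower in STOP and none higher, with a median log2 ratio of -1.05, and Junb was 3.19 times lower. Of 6 interferon-stimulated genes, 1 was higher and none lower, near the shares of all genes (7.12% and 6.74%), with a median of 0.31. Of 13 genes of complement and coagulation none differed by 2-fold, and the median was 0.05. Of 7 genes of heme breakdown and iron handling none differed by 2-fold, with a median of -0.13, and of 2 genes of heme synthesis none did.

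Zonation lists gave both directions between these libraries. Of 10 pericentral genes, 4 were higher in STOP and 4 lower, and of 12 periportal genes none was higher and 2 were lower, with medians of -0.27 and -0.52, beside 7.12% of all genes higher and 6.74% lower. Rgn was at 1266 CPM in D25 B and 3144 CPM in STOP, and Cyp2e1 at 146 and 361 CPM. Ass1, of the urea cycle, was at 3563 and 1512 CPM.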
